A study of Mus musculus with 2 samples.

Results

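This account covers 10 genes of apolipoproteins and of the assembly of very-low-density lipoprotein (VLDL), the triglyceride-carrying particle secreted by liver. They are Apob, Mttp, Tm6sf2, Apoa1, Apoa2, Apoa4, Apoa5, Apoc1, Apoc3 and Apoe. Members were chosen by gene symbol, with earlier results of these data known. They were read through probe sets to which the platform annotation assigns exactly 1 symbol. All 10 genes were found, each by 1 probe set, among 22180 genes with such a probe set. All 10 were above the intensity filter described below, as were 11090 genes in all.

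The study measured liver RNA of male mice on an Affymetrix whole-transcript array, with 1 array of Iah1-KO mice, which lack the esterase homologue gene Iah1 throughout the body, and 1 array of Iah1-WT mice. Both genotypes ate chow until 6 weeks of age and then a high-fat diet for 12 weeks, and liver was taken between 13:00 and 14:00 after 4 hours without food. Each array carried combined RNA from 3 mice, so differences among mice are averaged within an array and no value has a replicate error. The KO array therefore stands for 1 pool of KO livers and the WT array for 1 pool of WT livers, and no test of genotype was possible. Levels are RMA signals on the log2 scale, and a difference is the KO level minus the WT level of the same probe set. Signals of different probe sets do not compare the amounts of their RNAs.

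Hepatocytes build VLDL around apolipoprotein B, which takes up lipid in the endoplasmic reticulum as it is made. The microsomal triglyceride transfer protein, encoded by Mttp, loads the first lipid onto it, and the membrane protein encoded by Tm6sf2 serves the later filling of the particle. Smaller apolipoproteins join VLDL or high-density lipoprotein (HDL) and govern how fast lipases and receptors remove the particles from blood.

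The highest and the lowest of the 10 differences both lay inside the chromosome 9 cluster of Apoa1, Apoc3, Apoa4 and Apoa5. Its Apoa4 was 1.37-fold higher and its Apoc3 1.32-fold lower in the KO array. Among the genes of particle assembly, Tm6sf2 was 1.29-fold higher in KO, Mttp 1.10-fold and Apob 1.07-fold. The other genes differed by less than 1.10-fold in either direction. None of the 10 reached 1.5-fold, a size reached by 1.47% of genes above the filter upward and 2.45% downward.

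RefSeq windows around the transcription start, from 250 bases before it to 50 bases after it, were at hand for 7 of the 10 genes (Apob, Mttp, Apoa1, Apoa2, Apoa4, Apoa5 and Apoe), 11 windows in all, since some genes have several starts. The 4 windows below are shown because they belong to neighbours in the chromosome 9 cluster whose differences were unlike (Apoa4 and Apoa1) and to the genes for the structural protein of VLDL and its lipid loader (Apob and Mttp). All are of build GRCm38.p6 and read 5′ to 3′ on the strand of the gene. Apoa4 is at chr9:46240594-46240893 on the + strand, Apoa1 at chr9:46228380-46228679 on the + strand, Apob at chr12:7977427-7977726 on the + strand and Mttp at chr3:138143369-138143668 on the - strand. Capitals mark matches to the 5 motifs searched on both strands.
Apoa4: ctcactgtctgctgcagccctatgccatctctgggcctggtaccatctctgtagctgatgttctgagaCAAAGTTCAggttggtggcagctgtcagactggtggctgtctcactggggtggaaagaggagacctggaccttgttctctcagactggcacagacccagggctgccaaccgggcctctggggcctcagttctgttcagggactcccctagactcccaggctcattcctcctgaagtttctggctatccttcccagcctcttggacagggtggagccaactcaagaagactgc
Apoa1: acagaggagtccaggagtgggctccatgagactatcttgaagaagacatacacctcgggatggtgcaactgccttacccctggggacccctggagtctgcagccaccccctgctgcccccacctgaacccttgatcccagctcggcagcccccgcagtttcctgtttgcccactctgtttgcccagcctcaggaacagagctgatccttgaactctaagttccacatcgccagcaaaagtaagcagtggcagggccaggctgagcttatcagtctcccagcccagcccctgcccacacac
Apob: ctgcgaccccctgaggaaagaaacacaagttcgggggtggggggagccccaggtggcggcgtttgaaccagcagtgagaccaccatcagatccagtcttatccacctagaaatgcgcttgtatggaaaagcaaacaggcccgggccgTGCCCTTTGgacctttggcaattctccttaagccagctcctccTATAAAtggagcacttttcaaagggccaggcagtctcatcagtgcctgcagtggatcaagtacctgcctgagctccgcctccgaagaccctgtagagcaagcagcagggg
Mttp: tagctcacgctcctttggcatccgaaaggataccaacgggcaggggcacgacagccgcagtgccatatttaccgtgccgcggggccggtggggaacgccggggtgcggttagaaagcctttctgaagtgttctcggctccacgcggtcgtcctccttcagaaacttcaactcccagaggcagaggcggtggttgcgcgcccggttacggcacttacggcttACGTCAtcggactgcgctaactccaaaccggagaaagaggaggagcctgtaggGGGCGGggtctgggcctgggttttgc

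The motifs were TATAAA (the TATA box), CAAAGNNCA (part of a site read by the hepatocyte nuclear factor HNF4), ACGTCA (the core of the cAMP response element), CACGTG (an E-box) and GGGCGG (the GC box). In the window of Apoa4 the HNF4-type letters stood at position -182 from the start, and they occurred in 6.36% of the 32851 windows of all genes. The window of Apob held the same motif on the opposite strand at -103 and a TATA box at -60. TATA box letters were found in 13.6% of all windows. Mttp had the cAMP element core at -29 and a GC box at 25, which are present in 7.51% and 35.7% of all windows. The Apoa1 window matched none of the 5 motifs. The windows of Apoa5, not printed, held a TATA box and an E-box, the E-box occurring in 7.15% of all windows. TATA box letters also stood in unprinted windows of Apoa2, at -212, and of Apoe, at -96 and, on the opposite strand, -100. No matches overlapped in the 4 windows shown. A match describes the letters only.

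Before the members, the targeted gene was checked. Iah1 had a level of 3.90 in the KO array and 8.59 in the WT array, and the KO level lay below the intensity filter. The 2 arrays had nearly the same distribution, with medians of 4.10 in KO and 4.08 in WT over 41345 probe sets and a highest value of 13.50 in KO and 13.49 in WT. Genes were compared where the brighter array reached 4.68, the median over all genes. Over those genes the median difference was -0.02 and 44.3% lay above 0. As a check of the tissue label, outside the naming rule, the hepatocyte markers Alb and Ttr were read, encoding albumin and the thyroid hormone carrier transthyretin. Both were bright in both arrays, with 13.28 in KO and 13.30 in WT for Alb and 12.84 in KO and 12.83 in WT for Ttr.

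All 3 genes of particle assembly lay above 0. Apob, the structural protein of VLDL and the ligand of low-density lipoprotein for its receptor, had a level of 12.82 in the KO array and 12.72 in the WT array, a difference of 0.10. Mttp had 10.29 in KO and 10.15 in WT, a difference of 0.14. Tm6sf2, whose human counterpart carries a variant linked to fatty liver, had 8.34 in KO and 7.98 in WT, a difference of 0.36. The KO array was the brighter one for each of them, by an amount that was small for Apob and Mttp. Relative to Apob on the same array, Tm6sf2 was 0.27 higher in KO than in WT and Mttp 0.05 higher.

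Apoa1 and Apoa2 encode the main structural proteins of HDL. Apoa1, which activates the enzyme that esterifies cholesterol in plasma, had 10.55 in KO and 10.53 in WT, a difference of 0.01. Apoa2 had 13.07 in KO and 12.99 in WT, a difference of 0.08. Both differences were below 0.10, so that the HDL genes were nearly level between the pools.

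Apoa4 encodes a lipid-binding protein of chylomicrons, VLDL and HDL that is made by intestine and, in mice, also by liver. Its level was 11.77 in the KO array and 11.32 in the WT array, a difference of 0.45, the highest of the 10. Apoc3 encodes an inhibitor of lipoprotein lipase and of particle uptake by liver. It had 9.94 in KO and 10.34 in WT, a difference of -0.40, the lowest of the 10. The level of Apoa4 relative to Apoc3 was thus 1.81-fold higher in the KO array than in the WT array. A common scaling of either array would leave this ratio as it is, but an effect that varies with signal need not. The pair was taken as the highest and the lowest of the 10, so no other pair of them could give a larger ratio.

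The remaining genes act on clearance of particles from blood. Apoa5, which promotes hydrolysis of triglyceride by lipoprotein lipase, had 10.08 in KO and 10.21 in WT, a difference of -0.13. Apoc1, which hinders lipases and receptor uptake, had 12.32 in KO and 12.21 in WT, a difference of 0.11. Apoe, the ligand of VLDL remnants for receptors of the low-density lipoprotein receptor family, had 10.12 in KO and 10.08 in WT, a difference of 0.03. Of the 3 genes that act on lipases (Apoa5, Apoc1 and Apoc3), 1 lay above 0 and 2 below, so the group had no common direction.

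**Figure D1:**
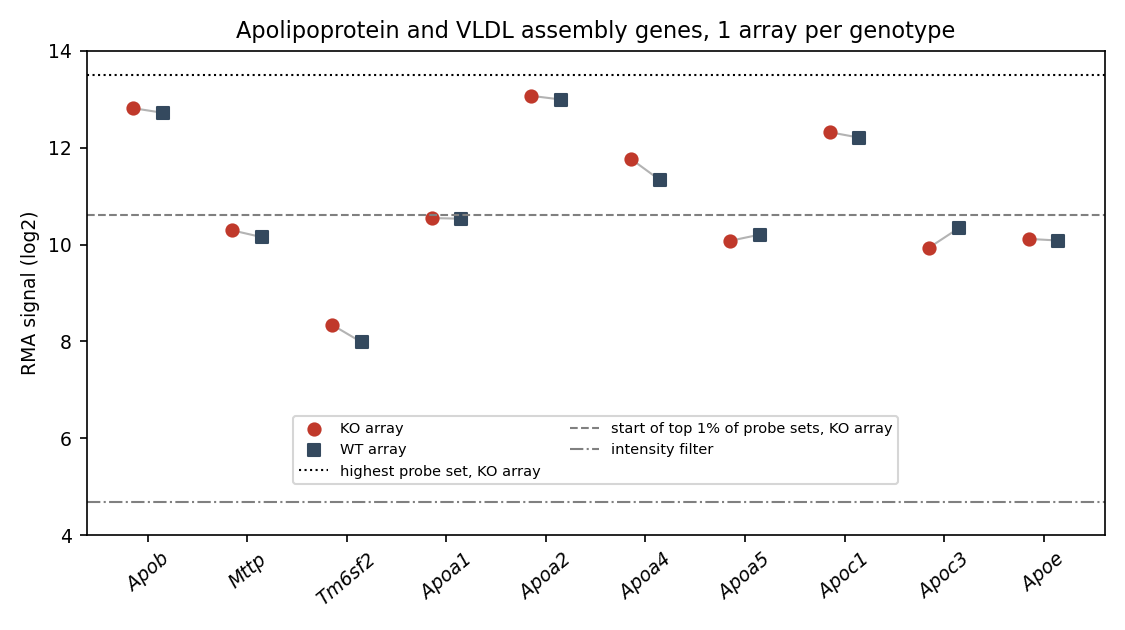
RMA signal on the log2 scale (y axis) of each of the 10 genes (x axis), with the KO array as red circles and the WT array as dark squares, 1 pool of 3 mice each. Horizontal lines mark the highest probe set and the start of the top 1% of probe sets on the KO array, and the intensity filter at 4.68; Apoa2 and Apob sit close under the highest value, and the slopes of Apoa4, Tm6sf2 and Apoc3 are the steepest.

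Taking the 10 genes as a list, 8 lay above 0 and 2 below, with a median of 0.09 and a range of -0.40 to 0.45. The median over all genes above the filter was -0.02. Without the outer members Apoa4, Apoc3 and Tm6sf2, the other 7 ranged from -0.13 to 0.14. A difference of at least 25% (0.32 on the log2 scale) was seen upward for 2 of 10, Apoa4 and Tm6sf2, against 6.62% of genes above the filter, and downward for 1 of 10, Apoc3, against 10.4%. The standard deviation (SD) of differences was 0.26 over all genes above the filter and smaller, 0.13, over the 555 brightest (the top 5% of mean signal, from 9.62 upward), and 9 of the 10 genes, Tm6sf2 being the other, are among these 555. In that group 1 of the 9, Apoa4, was higher by at least 25%, against 1.62% of the 555 genes, and 1 of the 9, Apoc3, was lower by that much, against 1.62%. The median difference of those 555 genes was 0.00 (-0.00041) and 49.7% lay above 0. Since the 10 genes were chosen with earlier results known, these shares describe the list and are no test.

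Each gene was also set beside the genes within 0.5 log2 units of its own mean signal. Apoa4 had the highest difference of the 87 genes in its band, whose SD was 0.10. For Tm6sf2, 9 of 1420 genes, itself included, were as high or higher, with an SD of differences of 0.17. For Apoc3, 5 of 337 genes, itself included, were as low or lower, with an SD of 0.14. Apob, although its difference was only 0.10, had the highest of the 23 genes in its band, where the SD was 0.06. Apoa2 was surpassed upward by 1 of the 21 genes in its own overlapping band, and that gene was Apob. As high or higher, the gene itself included, were 3 of 33 genes for Apoc1 and 36 of 304 for Mttp. For Apoa5, 42 of 333 genes were as low or lower, itself included. At the other end, 108 of 235 genes were as high as Apoa1 or higher, and 120 of 350 were as high as Apoe or higher. These ranks describe the 2 arrays and are no test.

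**Figure D2:**
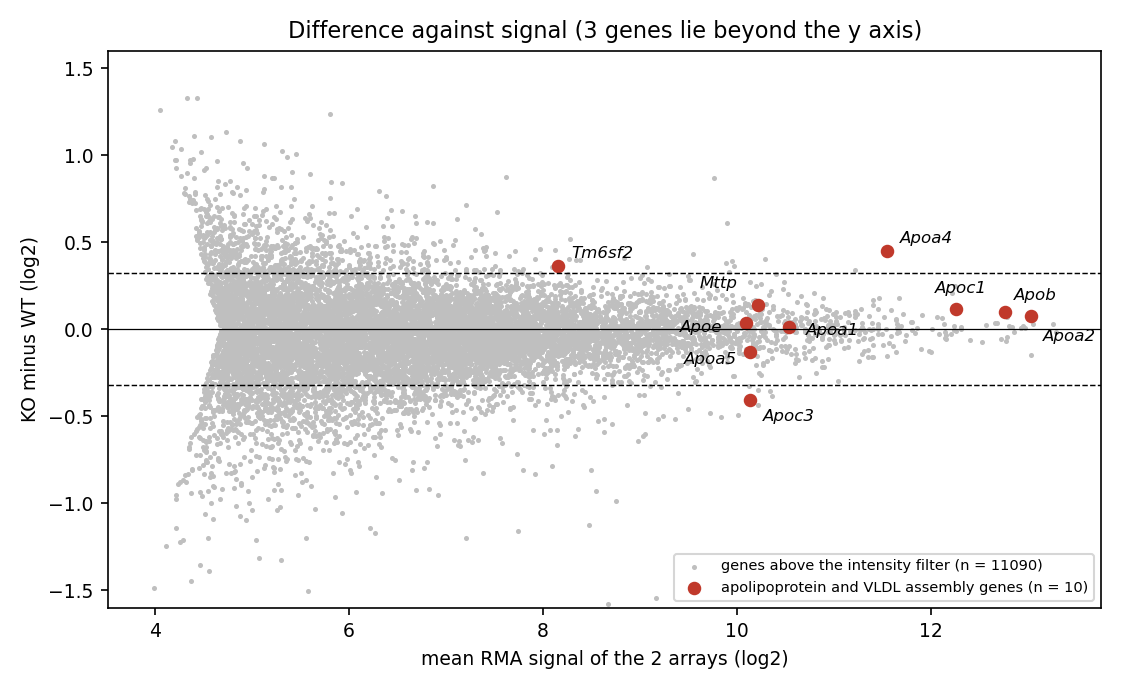
KO minus WT (log2, y axis) against the mean RMA signal of both arrays (log2, x axis) for 11090 genes above the filter (grey) and the 10 genes described (red, named), with dashed lines at a 25% difference. The grey cloud narrows toward high signal, where Apoa4 stands above it; Apoc3 and Tm6sf2 lie beyond the dashed lines, and 3 genes lie outside the y axis.

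Several of these probe sets were near the top of the range of the array. Apoa2 ranked 10 of 41345 probe sets in KO and 16 in WT and lay 0.43 under the highest value in KO and 0.50 in WT. Apob ranked 33 in KO and 41 in WT, 0.69 under the highest value in KO and 0.77 in WT. Apoc1 ranked 77 in KO and 84 in WT, and Apoa4 ranked 131 in KO and 202 in WT. These 4 were inside the top 1% of probe sets, which began at 10.62 on both arrays, and all 4 lay above 0, from 0.08 to 0.45. Mttp, Apoa1, Apoa5, Apoc3, Apoe and Tm6sf2 were outside it, with 4 of 6 above 0. The share above 0 was 44.3% of all genes above the filter and 49.7% of the 555 brightest. No intensity of single probes was used, so saturation of Apoa2, Apob, Apoc1 or Apoa4 was not tested. Apoa4 lay 1.73 under the highest value in KO and 2.17 in WT.

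The only error these arrays hold is disagreement between probe sets of 1 gene. For a single probe set's difference its SD was 0.27 over 604 genes with several probe sets, and 0.16 over the 71 of these genes with a mean signal of at least 7.63. It covers choice of probes and the noise of single probe sets. It leaves out mice, and any labelling or hybridisation effect shared by the probe sets of a gene. With 1 probe set for each member, it could not be read for the members themselves. Apoa4, Apoc3 and Tm6sf2 differed by more than both values, and the other 7 genes by less than 0.16.

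In RefSeq order the chromosome 9 cluster runs Apoa1, Apoc3, Apoa4, Apoa5, so the highest and the lowest of the 10 differences belong to adjacent genes. Relative to Apoa1, Apoa4 was 1.35-fold higher and Apoc3 1.34-fold lower in KO than in WT. The measured genes flanking the cluster were close to 0, with Sik3 at 0.03 on one side and Zpr1 at 0.06 on the other. Beyond Sik3, Sidt2 was at 0.04 and the smooth muscle gene Tagln at 0.27, and beyond Zpr1, Bud13 was at -0.03. On chromosome 7, Apoc1 and Apoe lie between Apoc2 and Tomm40. Apoc2, the activator of lipoprotein lipase, had 9.91 in KO and 9.68 in WT, a difference of 0.22, and Tomm40 was at 0.09. All 3 apolipoprotein genes of that cluster with a probe set of their own therefore lay above 0. Apob is on chromosome 12, as is Iah1, and its nearest measured neighbours above the filter were Ldah at 0.16 and Atad2b at -0.02. Of 36 measured neighbours of members, 27 were above the filter, with a median of 0.00 (-0.00478). Of the 27, 3 (Adh7, Trmt10a and Gdf7, all lower and all with a KO level below the filter) differed by at least 25%. Over all genes above the filter the shares were 10.4% downward and 6.62% upward.

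**Figure D3:**
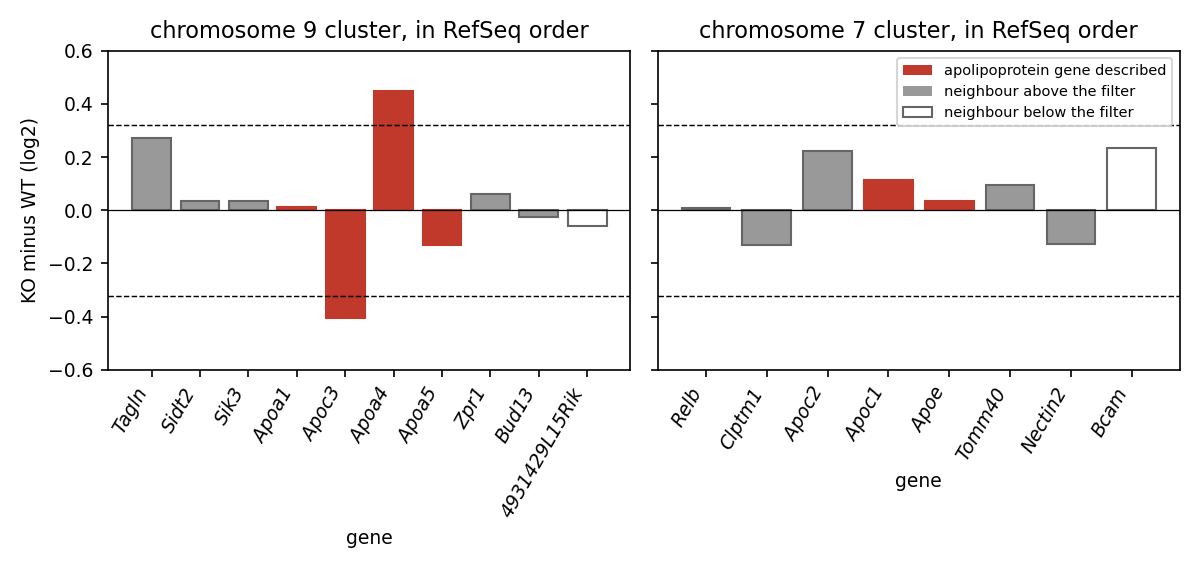
KO minus WT (log2, y axis) for the apolipoprotein genes described (red) and up to 3 measured protein-coding neighbours on each side (grey, or white below the filter), in RefSeq gene order (x axis) on chromosomes 9 and 7, with dashed lines at a 25% difference. In the chromosome 9 cluster Apoc3 points down and the adjacent Apoa4 up, while Apoa1 and the flanking Sik3 and Zpr1 stay near 0.

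Further genes of the pathway were taken from 6 lists of 79 genes, of which 70 were measured and above the filter. Of these 70, 31 lay above 0, with a median of -0.03, against 44.3% of all genes above the filter. At least a 25% difference was seen upward for 4 of the 70 and downward for 5, and these counts are near or under the shares of all genes, 6.62% and 10.4%. Among 7 other apolipoprotein genes the median was 0.00 (0.0022), and 1 was higher by that amount. It was Apon, a rodent liver apolipoprotein gene, with 10.08 in KO and 9.75 in WT, a difference of 0.33, which just passes 25%; with quantile normalization run again, none of the list did. Saa4, a constitutive serum amyloid protein of HDL, was at -0.13. Genes that help load lipid in the endoplasmic reticulum had a median of -0.03 over 12 genes and none reached 25%, although 1 did after loess, quantile normalization or median subtraction. In that list the carboxylesterase gene Ces1d, whose product mobilises stored triglyceride for VLDL, was at 0.31, the membrane protein gene Vmp1 at -0.25 and the phospholipid-remodelling Lpcat3 at -0.16. Outside the naming rule, the protein disulfide isomerase gene P4hb, which encodes the partner subunit of the Mttp product, was at 0.10.

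Secretory export through COPII vesicles was nearly level, with a median of 0.05 over 16 genes, 9 of them above 0 and none at 25%. The outer members were Klhl12 at 0.21, which serves enlargement of COPII coats, the cargo adaptor gene Sec24d at 0.18, and Sort1, a sorting receptor for apolipoprotein B, at -0.19. Of 13 genes of plasma remodelling and uptake, 1 was higher and 4 lower by at least 25%, with a median of -0.06, against 6.62% and 10.4% of all genes. With the filter at percentile 75, 2 genes in all were past 25%. The sterol transporter gene Abcg1 was 1.57-fold lower in KO, with 5.69 in KO and 6.33 in WT, and was the only one of the 70 past 1.5-fold. The receptor gene Vldlr was at -0.57 and the lipoprotein lipase gene Lpl at -0.44, with Lpl below the filter in KO. Outside the naming rule and picked after their values were seen, the lipase inhibitor gene Angptl8 was at 0.40 and the phospholipid transfer protein gene Pltp at -0.35.

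Of 19 transcription factor and co-regulator genes that act on these promoters or on lipid synthesis, 2 were higher and none lower by at least 25%, against 6.62% and 10.4% of all genes, with a median of -0.03. Srebf2, the activator of sterol synthesis, was at 0.44, Nr0b2, a nuclear receptor that represses others, at 0.35, and the co-activator gene Ppargc1b at 0.29. Outside the naming rule and picked with their values known, Hnf4a, which drives many apolipoprotein genes in liver, had 10.17 in KO and 10.25 in WT, and Creb3l3, a fasting-responsive activator of Apoa4, had 9.32 in KO and 9.53 in WT. Their differences were -0.07 and -0.21. In the whole list of 19, 8 lay above 0 and 11 below, and no link between a factor and a member was tested. The editing of Apob messenger RNA, which in mouse liver yields the short form of apolipoprotein B, depends on Apobec1. That gene had 7.27 in KO and 7.66 in WT, a difference of -0.39, while its cofactor genes Rbm47 and A1cf were at -0.08 and -0.02. The short and long forms of Apob are not separated by the array.

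**Figure D4:**
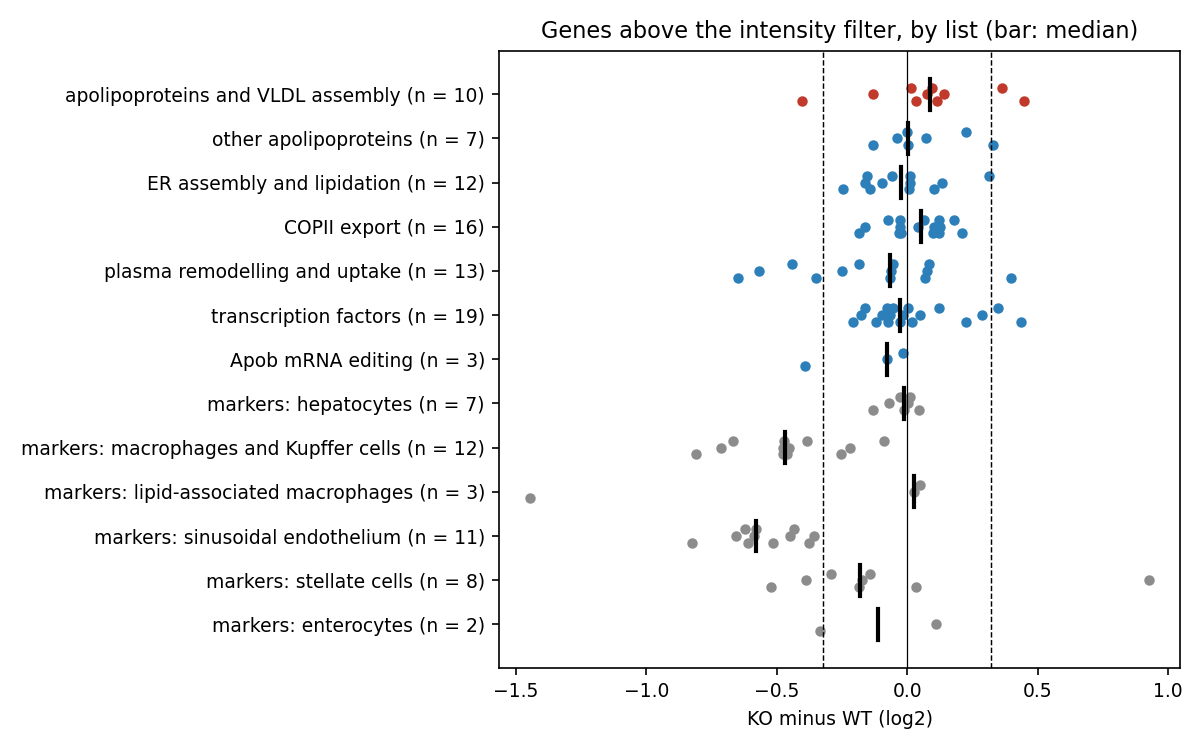
KO minus WT (log2, x axis) of each gene above the filter, for the 10 genes described (red), 6 lists of the wider pathway (blue) and 6 lists of cell type markers (grey), with a bar at each median and dashed lines at a 25% difference. The 10 genes have a median of 0.09, the pathway lists lie near 0, and the macrophage and endothelial markers lie to the left.

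Markers of other liver cells also differed between the arrays. All 12 macrophage and Kupffer cell markers lay below 0, with a median of -0.47 and a summed unlogged signal of 1840 in KO and 2590 in WT, none below the filter, and C1qb and Vsig4 were 1.75-fold and 1.64-fold lower. Sinusoidal endothelium showed the same, with 11 of 11 markers under 0, their median at -0.58, none below the filter and a summed signal of 2277 in KO and 3309 in WT, and Lyve1 and Tek were 1.77-fold and 1.58-fold lower. In such bulk RNA, fewer cells of a type and less RNA per cell cannot be told apart. Apoe is also made by macrophages, and its difference was 0.03 in these arrays. The 3 markers of lipid-associated macrophages above the filter had a median of 0.03, with Trem2 at 0.05 and Mmp12 at -1.44, where Trem2 was below the filter in WT and Mmp12 in KO, and their 5 measured members summed to 116.1 in KO and 131.1 in WT. Stellate cell markers had a median of -0.18 over 8 genes, with Lrat at -0.52 and Des at 0.93 (Des passed the filter only through KO), and summed to 1771 in KO and 2002 in WT. Hepatocyte markers were nearly level, with a median of -0.01 over 7 genes, among them Cps1 at -0.13 and Ahsg at -0.07, and summed to 37687 in KO and 38402 in WT. Apob, Mttp, Apoa4 and Apoc3 are hepatocyte genes within liver, and the part of the other cell types in their differences was not tested.

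Apoa4, Apob and Mttp are also intestinal genes, so enterocyte markers were read. Of 7, the 5 genes Vil1, Lct, Sis, Cdx2 and Alpi, named outside the rule, were below the filter in both arrays. Cdx1 had 4.50 in KO, below the filter, and 4.83 in WT. Fabp2, a fatty acid binding protein gene, was bright in both, with 10.06 in KO and 9.95 in WT. The summed signal of the 7 was 1151 in KO and 1090 in WT, nearly all of it from Fabp2. Which cells gave the Fabp2 signal was not tested.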

How the data were processed

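Liver RNA of Iah1-KO and Iah1-WT mice was measured on 1 array each. The authors deposited log2 values per probe set, for which RMA and Affymetrix Expression Console 1.3.0 are listed in the submitters' processing notes. RMA equalises the distributions of the arrays, so a shift of all transcripts would be removed, and it compresses dim differences. No source used here gives the genome build of the array. The platform annotation gave 1 symbol for 23521 of 41345 probe sets, several for 1814 and none for 16010, and all 10 members matched a RefSeq gene identifier of GRCm38.p6.

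Gene levels were means of log2 values over probe sets with 1 symbol. The filter was the median (percentile 50) of the higher array, 4.68. With 1 array per genotype no test was made and genes were counted by size. The members and lists were chosen with earlier results of these data known. Named genes are the members, Iah1, up to 3 genes a pathway list and 2 a marker list with the largest difference, and neighbours of members; others are marked in the text as outside this rule. Alternatives were 2-fold, no filter or percentile 75, loess (span 0.4, statsmodels 0.14.6), quantile normalization, median subtraction, the brightest probe set, probe sets naming several genes, and leaving out the top 1% of probe sets. Counting steps were tested on simulated data with less noise than the arrays and larger changes than the members show. That checks the code and not the power to find such differences. Array precision is limited by the number of arrays.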

Additional observations from a re-analysis of the deposited data

Results flagged for a closer look

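A probe set that names both Apoc4 and Apoc2 was left out of the main comparisons, since it has more than 1 gene symbol. It entered only the alternative that included probe sets naming several genes. It was higher in the KO array, with a level of 11.41 in KO and 11.24 in WT, a difference of 0.17. The probe set of Apoc2 alone differed by 0.22. Groups of 1 array allow no search for outlying samples.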

How the results depend on the processing

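Each member kept its sign in every alternative that gave it a value, and none moved by more than the probe set disagreement of 0.27. With 1 probe set each, members could change only under loess, quantile normalization and median subtraction, and the other settings repeat the main value. In size, 0.27 also exceeds every member difference except those of Apoa4, Apoc3 and Tm6sf2. Apoa4 ranged from 0.44 to 0.47, Apoc3 from -0.40 to -0.38, Tm6sf2 from 0.36 to 0.39, Apob from 0.08 to 0.12 and Apoa1 from 0.01 to 0.04. Leaving out the top 1% of probe sets gave no value for Apoa2, Apob, Apoc1 and Apoa4. The member median ranged from 0.07 to 0.11, including leaving out Apoa4, Apoc3 or Tm6sf2 in turn, which was added after the data were seen.

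Counts over all genes depended on the filter. The 163 higher and 272 lower genes past 1.5-fold became 572 and 576 without a filter, 18 and 61 with the filter at percentile 75, and 15 and 34 at 2-fold. The 9 higher and 9 lower of the brightest genes past 25% became 2 and 2 with the stricter filter, which shrinks the group, and 24 lower without a filter. Of 228 alternative values, 15 were marked as moved and 213 as the same. Many of the 213 repeat the main value because the setting could not change it, so the share is no measure of stability. Of the pathway lists, genes past 25% went to 2 without a filter and 0 with quantile normalization for other apolipoproteins (1 as reported), to 1 under 3 scalings for lipid loading (0 as reported) and to 2 with the stricter filter for plasma remodelling (5 as reported). No paired analysis was possible because each genotype has 1 array. The effect of signal near the top of the range on Apoa2, Apob, Apoc1 and Apoa4 was not tested.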
